A study of Mus musculus with 8 samples.

Results

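The hormones and granins of enteroendocrine cells were described on 8 arrays of mouse gut. The set held 10 genes: the granins Chga and Chgb, the hormone genes Gcg, Pyy, Cck, Sct, Sst, Nts and Gip, and Tph1, the enzyme that starts serotonin synthesis. Members were chosen by name, and each was measured by every probe set assigned to it and to no other gene. This gave 10 probe sets, 1 for each member, out of 18193 genes with such a probe set. All 10 members passed the filter on low signal.

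Enteroendocrine cells are scattered, hormone-secreting cells of the gut epithelium that sense the contents of the lumen and release peptides or serotonin. They store their products in dense-core granules, which granins help to form, and Chga is widely used as a general marker of these cells. Which hormone a cell makes depends on where it lies along the gut: Gip, Cck and Sct are known mainly from the small intestine, Nts from its distal end, and Gcg and Pyy from the ileum and colon.

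The mice were of strain C57BL/6 and aged 110 days. Tissue without tumours, colon or small intestine, came from WT mice and from ACKR2-/- mice, neither of which carried the ApcMin allele. Tumours of the colon and of the small intestine came from ApcMin/+ mice, in which 1 copy of the Apc tumour suppressor gene is mutated and gut tumours arise on their own, and from ACKR2-/-ApcMin/+ mice. ACKR2 (D6) is a scavenging receptor that takes inflammatory chemokines out of tissue. The labels place the small-intestinal tumours in the ileum and name no segment for the non-tumour small intestine. RNA was pooled within each genotype, with the number of animals per pool not given, so each of the 8 groups was 1 array and none had a replicate. Non-tumour tissue came from other mice than the tumours, so tumour status and the ApcMin allele cannot be told apart.

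The array signal is a linear intensity in arbitrary units, and its median on an array lay between 85.5 and 133.1. Signals below 64.1, the floor, were set to 64.1 before log2 was taken, so a fold against an array at the floor is a lower limit. Differences are given on the log2 scale with the standard error (SE) of 1 limma model over all 8 arrays. A gene was called where its p, adjusted by Benjamini-Hochberg over the 14023 genes tested, was under 0.05. The SE comes from how far the effect of ACKR2 loss differed between the tissues. It therefore describes these pools, and precision is limited by the small number of arrays. Eif2s3y, a gene on the Y chromosome, had a signal of 2.92 and 2.66 in the WT arrays and of 888 to 1501 in the other 6. Xist, expressed from the inactive X chromosome of females, had 77.9 and 127 in the ACKR2-/-ApcMin/+ tumours and 2818 to 9809 in the other 6. ACKR2 loss and sex therefore cannot be told apart, in tumours or in non-tumour gut. Each tumour array also differed in Eif2s3y or Xist from the non-tumour array of its ACKR2 status. Sex and tumour status therefore cannot be told apart either. The WT small-intestinal array also stood apart in some genes of the colon. Car1, a colonocyte gene, had 18864 there and 19162 in WT colon, against 42.3 to 114 on the other 3 small-intestinal arrays. Cyp2c55 had 9970 against 608 to 1147 on those 3, and Aqp8 had 958 against 105 to 122. Other colonocyte genes did not stand apart: Slc26a3 had 4981 against 3051 to 6718, and Car4 had 9661 against 3292 to 9812. Atp12a and Scnn1g were under the floor on all 4 small-intestinal arrays. Car1 was the largest term in the sum of 8 colonocyte markers on the WT small-intestinal array, 44518, against 7258 to 17911 on the other 3. The called regional differences of members and their range in small-intestinal tumours are also given without this array. So are the member interactions with an unadjusted p under 0.05. Other results that use this array, among them those of the lists, are not. The 3'/5' signal ratio of Actb, a measure of RNA integrity, was 1.13 to 1.17 in the 4 ACKR2-intact arrays and 1.28 to 1.39 in the 4 ACKR2-deficient ones. The part of sex and RNA integrity in the results was not tested, since the arrays left without the WT ones still differed in both. In whole tissue, fewer cells of a type and less RNA per cell cannot be told apart.

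Of the 10 members, Chga, Chgb and Sst fell in colon tumours and Nts rose, and the sequences just upstream of these 4 genes are shown for that reason. They are the 150 bases before the RefSeq transcript start on assembly GRCm38.p6, read 5′ to 3′ on the strand of the gene. Chga lies on the plus strand at chr12:102554791-102554940 and Chgb on the plus strand at chr2:132781492-132781641. Sst lies on the minus strand at chr16:23890845-23890994 and Nts on the minus strand at chr10:102490419-102490568. Capitals mark matches to TGACGTNA on either strand, the letters of the cyclic AMP response element with 1 free base.
Chga: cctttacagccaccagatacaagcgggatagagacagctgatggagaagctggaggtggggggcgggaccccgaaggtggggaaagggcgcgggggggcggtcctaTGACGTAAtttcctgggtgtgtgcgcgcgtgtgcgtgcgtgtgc
Chgb: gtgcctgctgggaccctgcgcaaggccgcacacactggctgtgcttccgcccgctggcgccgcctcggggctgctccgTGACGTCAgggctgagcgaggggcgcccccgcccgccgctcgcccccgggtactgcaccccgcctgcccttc
Sst: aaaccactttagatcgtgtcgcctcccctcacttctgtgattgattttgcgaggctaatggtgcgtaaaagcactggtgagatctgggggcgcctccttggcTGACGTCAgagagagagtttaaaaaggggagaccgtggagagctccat
Nts: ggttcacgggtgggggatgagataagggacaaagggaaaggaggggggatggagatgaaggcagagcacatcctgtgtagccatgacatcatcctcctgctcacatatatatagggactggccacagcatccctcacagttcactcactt

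The letters TGACGTNA began 44 bases before the start of Chga, 72 before that of Chgb and 48 before that of Sst. Among the 10 members, which gave 12 upstream windows of 250 bases, these 3 genes held them and the other 7 did not. Of all 32851 windows of the same length, 2.52% held a match. The letters CAGATG, an E-box core searched on both strands, lay upstream of Gcg, Cck and Sct and in 14.4% of all windows. The letters TATAAA, searched on the gene's strand only, lay upstream of Gcg and Sct and in 7.59% of all windows. The motifs were picked after the signals had been seen, and a match is a description of the letters, not of a bound factor.

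**Figure D1:**
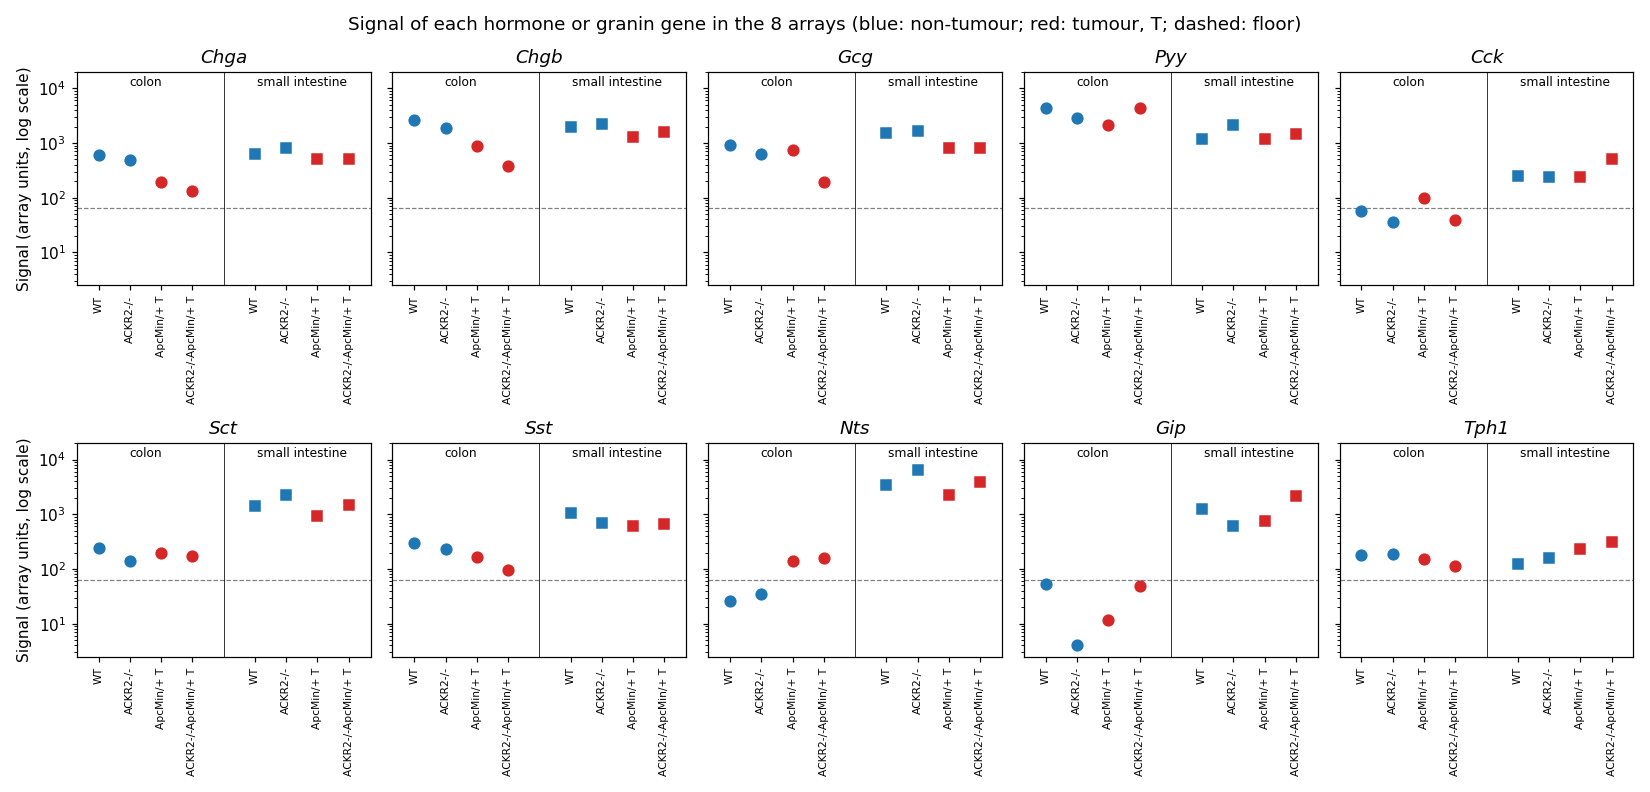
Signal of the 10 members on each of the 8 arrays (log axis, arbitrary units), with 1 point per array, colon and small intestine apart, tumour arrays (T) beside non-tumour arrays, and the floor of 64.1 as a line. Every small-intestinal array lies above every colon array for Cck, Sct, Sst, Nts and Gip, and Gip is below the floor on all 4 colon arrays.

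The first question was how the hormones differed between the regions of gut without tumours. Nts, Gip, Sct, Cck and Sst were lower in colon than in small intestine, by differences of -6.20 to -1.69 on the log2 scale. Of the 10 members 5 were called lower, where 8.40% of all genes tested were, and 0 were called higher, where 13.0% were. The median difference over the members was -1.37, against 0.11 over all genes tested. The same 5 members had each of their 4 small-intestinal signals, tumours included, above each of their 4 colon signals, an order that 7.31% of all genes tested had. Without the WT small-intestinal array the differences were -6.67 for Nts, -3.24 for Gip, -3.96 for Sct, -1.93 for Cck and -1.54 for Sst, with none called by limma (adjusted p = 0.178 to 0.333). With no filter on low signal limma kept the call of Nts and lost those of Gip, Sct, Sst and Cck (adjusted p = 0.098 to 0.182).

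Nts encodes neurotensin, a peptide that slows gastric emptying and promotes fat uptake. Its signal was 25.8 in WT colon and 34.4 in ACKR2-/- colon, both under the floor, and 3404 and 6538 in the small intestine of the same genotypes. Small intestine was at least 53.1-fold higher in the WT pair and at least 102-fold higher in the ACKR2-/- pair. The difference of -6.20 ± 0.29 (SE) had an adjusted p of 0.000147 in limma. It was the largest among the members.

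Gip encodes the incretin released by K cells after a meal. Its signal was 52.1 and 4.03 in WT and ACKR2-/- colon and 1263 and 606 in small intestine. Both colon arrays were under the floor, which makes small intestine at least 19.7-fold and at least 9.45-fold higher in the 2 pairs (difference -3.77 ± 0.44, limma adjusted p = 0.00343). Sct encodes secretin, which makes the pancreas release bicarbonate. Its signal was 245 and 142 in colon against 1413 and 2210 in small intestine, with no overlap. It was 5.78-fold higher in small intestine in the WT pair and 15.6-fold in the ACKR2-/- pair (difference -3.25 ± 0.39, limma adjusted p = 0.00362).

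Cck encodes cholecystokinin, which contracts the gallbladder and stimulates pancreatic enzyme secretion. Its signal was 56.4 and 36.6 in colon, both under the floor, and 252 and 244 in small intestine. The difference was -1.95 ± 0.41 (limma adjusted p = 0.0234), or at least 3.93-fold and at least 3.81-fold in the 2 pairs. With the floor raised to the 60th percentile of signal, 192, this difference shrank to -0.37 and the call was lost (limma adjusted p = 0.355).

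Sst encodes somatostatin, the product of D cells that inhibits the release of other gut hormones. Unlike Nts, Gip and Cck it had signal above the floor in both regions. Its signal was 298 and 234 in WT and ACKR2-/- colon and 1066 and 681 in small intestine, and the groups did not overlap. Small intestine was 3.57-fold and 2.91-fold higher (difference -1.69 ± 0.30, limma adjusted p = 0.0124).

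Pyy encodes peptide YY, an L-cell hormone that slows transit and reduces appetite. Its signal was 4428 in WT and 2921 in ACKR2-/- colon, and 1160 and 2157 in small intestine. Both colon signals were above both small-intestinal ones, but by unequal amounts, 3.82-fold in the WT pair and 1.35-fold in the ACKR2-/- pair. The difference of 1.18 ± 0.36 did not pass the threshold (limma adjusted p = 0.0655). With each array centred on a list of epithelial genes it was 1.60 and passed (limma adjusted p = 8.36e-06). Of the 11 genes of that list 3 were themselves called lower and 1 higher in colon, so this centring shifts every regional difference. Without the WT small-intestinal array the Pyy difference was 0.44.

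Gcg encodes proglucagon, which L cells process to the glucagon-like peptides. Its signal was 932 and 643 in colon and 1545 and 1663 in small intestine, so that the 2 L-cell genes were ordered oppositely. The Gcg difference was -1.05 ± 0.45 (limma adjusted p = 0.15). Chga (-0.36 ± 0.28, limma adjusted p = 0.406), Chgb (0.09 ± 0.36, 0.898) and Tph1 (0.44 ± 0.29, 0.333) did not pass either. The colon and small-intestinal signals of Chgb overlapped. Those of Chga did not, though 615 in WT colon was close to 623 in WT small intestine, nor did those of Tph1, at 181 and 190 in colon against 121 and 156 in small intestine. The regional calls were therefore on 5 hormone genes and on neither granin.

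The second question was which members differed between tumours and tissue without tumours. In the colon both granins and Sst were lower in tumours and Nts was higher. Of the 10 members 3 were called lower, where 12.6% of all genes tested were, and 1 was called higher, where 11.0% were. The median difference over the members was -0.37, against 0.00 over all genes tested. Both colon pairs of each called member pointed the same way. With any 1 of the 8 arrays left out, which leaves 1 residual degree of freedom, limma called 0 members here or in any other comparison. Leaving out 1 array gave -2.13 to -1.44 for Chga, -2.66 to -1.18 for Chgb, -1.51 to -0.61 for Sst and 0.76 to 1.70 for Nts. Without both WT arrays, which differed from the rest in sex, the values were -1.74, -1.89, -1.04 and 1.46, with none called by limma. That fit still set ACKR2-/-ApcMin/+ tumours, low in Xist, against ACKR2-/- colon, so it does not separate sex from tumour status. With no filter on low signal all 4 calls were lost (limma adjusted p = 0.103 for Chga, 0.161 for Chgb, 0.191 for Sst and 0.173 for Nts).

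**Figure D2:**
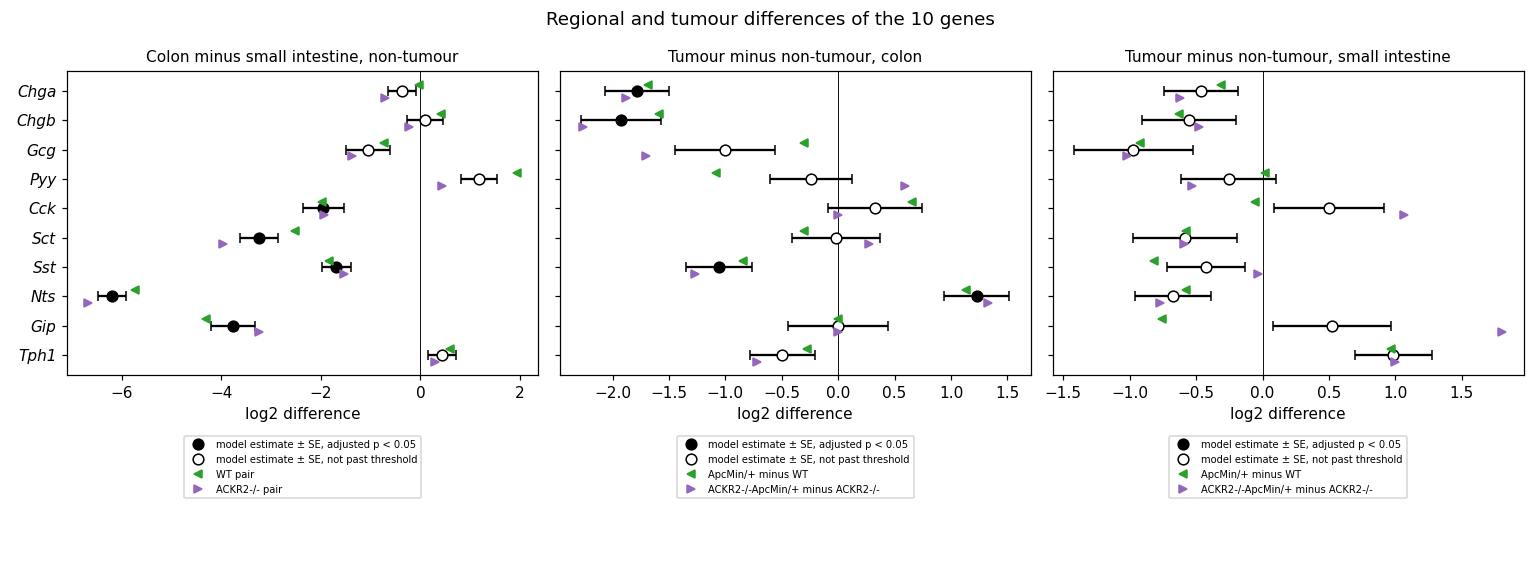
Log2 differences of the 10 members in 3 panels: colon minus small intestine without tumours, and tumour minus non-tumour tissue in colon and in small intestine. Triangles are the 2 pairs of arrays and circles the limma estimate ± SE, filled where it passed the threshold. In colon tumours Chga, Chgb and Sst lie below 0 in both pairs and Nts above 0 in both, while in small intestine no member passed the threshold.

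Chga encodes chromogranin A. Its signal was 615 and 490 in WT and ACKR2-/- colon, and 191 and 133 in the colon tumours of ApcMin/+ and ACKR2-/-ApcMin/+ mice. Every tumour array was below every non-tumour array. Chga was 3.22-fold lower in the ACKR2-intact pair and 3.69-fold lower in the ACKR2-deficient pair, a difference of -1.78 ± 0.28 (limma adjusted p = 0.00946).

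Chgb encodes chromogranin B, its partner in the granule matrix. Its signal was 2658 and 1859 in colon and 886 and 388 in colon tumours, again with no overlap. The fall was 3.0-fold in the ACKR2-intact pair and 4.79-fold in the ACKR2-deficient pair (difference -1.92 ± 0.36, limma adjusted p = 0.0154). Centred on the epithelial genes, the colon tumour differences were -1.71 for Chga and -1.84 for Chgb and both passed (limma adjusted p = 0.00223 and 4.95e-06). Of the 11 genes of that list 1 was itself called higher and 1 lower in colon tumours.

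Sst went from 298 and 234 in colon to 166 and 97.3 in colon tumours, without overlap. It was 1.80-fold and 2.41-fold lower in the 2 pairs (difference -1.06 ± 0.30, limma adjusted p = 0.048). This call was close to the threshold and was lost with the higher floor (-0.46, 0.136), with the epithelial centring (-0.98, 0.147) and with the ACKR2 terms left out of the limma model (-1.06, 0.117).

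Nts went the other way: its signal was 25.8 and 34.4 in colon, under the floor, and 140 and 161 in colon tumours. Colon tumours were at least 2.19-fold and at least 2.51-fold higher (difference 1.23 ± 0.29, limma adjusted p = 0.0291), and without the floor the difference was 2.34. The tumour signals were still under the higher floor of 192, with which the difference was 0.00, and the call was also lost with the ACKR2 terms left out (limma adjusted p = 0.082). The same colon tumours were 16.3-fold and 23.7-fold below the small-intestinal tumours in Nts. Of 5 Paneth cell markers, which mark another small-intestinal cell type, 4 were called higher in colon tumours, where 11.0% of all genes were. Of 8 markers of small-intestinal enterocytes 0 were called higher and 1 lower, where 12.6% of all genes were called lower. The part of other cell types in the Nts signal was not tested.

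The L-cell genes were not called in colon tumours. Gcg had a signal of 757 in ApcMin/+ colon tumours and 197 in ACKR2-/-ApcMin/+ ones, against 932 and 643 in non-tumour colon. Only the second pair was far apart, 3.26-fold against 1.23-fold in the first (difference -1.0 ± 0.45, limma adjusted p = 0.158). Pyy had a signal of 2096 in ApcMin/+ and 4411 in ACKR2-/-ApcMin/+ colon tumours, against 4428 and 2921 without tumours. Its pairs had opposite signs, -1.08 and 0.59 (limma adjusted p = 0.681).

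Sct (198 and 171 in colon tumours, difference -0.02 ± 0.39) and Tph1 (150 and 116, -0.50 ± 0.29) did not pass in limma, with adjusted p-values of 1 and 0.265. Cck was above the floor on 1 of the 4 colon arrays only, the ApcMin/+ tumours, at 101 (limma adjusted p = 0.623). Gip was under the floor on all 4, with 11.6 and 47.9 in the tumours, and no fold is given for it.

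In small-intestinal tumours 0 of the 10 members were called by limma, where 3.97% of all genes tested were. At an unadjusted p under 0.05 there was 1, Tph1. Without the WT small-intestinal array the differences ran from -1.30 (Sct) to 1.05 (Gip), again with none called by limma. The median difference over the members was -0.44, against 0.04 over all genes tested. Chga had a signal of 623 and 799 in non-tumour small intestine and 502 and 520 in the tumours (difference -0.46 ± 0.28, limma adjusted p = 0.417). Chgb had 1986 and 2188 against 1285 and 1570 (-0.55 ± 0.36, 0.445). For both granins the tumour arrays were below the non-tumour arrays without overlap, by at most 1.54-fold in a pair.

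Gcg had a signal of 1545 and 1663 in non-tumour small intestine and 814 and 820 in the tumours. The pairs were alike, 1.90-fold and 2.03-fold apart, yet the difference of -0.97 ± 0.45 did not pass (limma adjusted p = 0.292). Its SE takes in the unequal Gcg gap between the 2 genotypes of colon tumours. Nts had 2285 and 3819 in the tumours against 3404 and 6538 without tumours, so the groups overlapped (-0.68 ± 0.29, limma adjusted p = 0.262). Sct (949 and 1467 against 1413 and 2210, -0.58 ± 0.39, limma adjusted p = 0.464) and Sst (606 and 664 against 1066 and 681, -0.43 ± 0.30, 0.483) did not pass.

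Gip and Cck signals were unequal in the 2 kinds of small-intestinal tumours. Gip had a signal of 748 in ApcMin/+ tumours and 2116 in ACKR2-/-ApcMin/+ tumours, against 1263 and 606 without tumours, so 1 pair was 1.69-fold lower and the other 3.49-fold higher. Cck had 242 and 510 in the tumours against 252 and 244 (0.50 ± 0.41, limma adjusted p = 0.56), and only the ACKR2-/-ApcMin/+ array stood apart. Pyy had 1175 and 1493 against 1160 and 2157, with overlap (-0.26 ± 0.36, limma adjusted p = 0.748). The difference for Gip was 0.52 ± 0.44 (limma adjusted p = 0.568). Between the 2 kinds of tumours enterocyte markers differed in the same direction as Gip and Cck. The sum of 8 was 103497 in ApcMin/+ and 196188 in ACKR2-/-ApcMin/+ small-intestinal tumours, against 197102 and 150360 without tumours. Over all small-intestinal arrays the order of this sum was not that of Gip or of Cck. Fabp1, a fatty acid carrier of enterocytes, had 1988 and 28571 in those tumours and 22806 and 5586 without tumours. The part of enterocyte content in the Gip and Cck gaps was not tested.

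Tph1 encodes the rate-limiting enzyme of serotonin synthesis in enterochromaffin cells, and in mice mast cells make it too. Its signal was 121 and 156 in non-tumour small intestine and 236 and 312 in the tumours, without overlap. The tumours were 1.96-fold and 2.0-fold higher, a difference of 0.98 ± 0.29 that did not pass (limma adjusted p = 0.135). On the same arrays 8 of 11 mast cell markers were called higher in tumours, where 3.97% of all genes were called in either direction. Their summed signal was 1150 and 998 in non-tumour small intestine, 14862 in ApcMin/+ tumours and 27968 in ACKR2-/-ApcMin/+ tumours. In colon it was 1484 and 1191 without tumours and 1488 and 6141 in tumours. The part of mast cells in the Tph1 signal was not tested.

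Whether the tumour effect differed between the tissues was tested by the interaction. By limma 0 of the 10 members passed, where 2.25% of all genes tested did, and 4 had an unadjusted p under 0.05. These were Nts (1.90 ± 0.41, limma adjusted p = 0.081), Tph1 (-1.48 ± 0.41, 0.134), Chga (-1.32 ± 0.40, 0.156) and Chgb (-1.37 ± 0.50, 0.218). Without the WT small-intestinal array these differences were 2.38 for Nts, -1.33 for Tph1, -0.98 for Chga and -1.04 for Chgb. The loss of granin signal was thus called in colon and not in small intestine, and a difference between the tissues was not shown.

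Among tumours the regional pattern was measured directly. Nts, Gip, Sct, Sst, Cck and Chga were lower in colon tumours than in small-intestinal tumours, 6 of 10 members where 7.36% of all genes tested were called lower, and 0 members were higher, where 5.76% were. The median over the members was -1.90, against 0.07 over all genes tested. The differences were -4.30 ± 0.29 for Nts (limma adjusted p = 0.00091) and -4.29 ± 0.44 for Gip (0.00337), which was under the floor in colon tumours. Sct (-2.68 ± 0.39), Sst (-2.32 ± 0.30) and Cck (-2.13 ± 0.41) followed, with limma adjusted p-values of 0.00941, 0.00646 and 0.0246. These are the 5 hormones that were lower in non-tumour colon. For Cck the size is a lower limit, since its signal of 38.5 in ACKR2-/-ApcMin/+ colon tumours was under the floor.

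Chga, at 191 and 133 in colon tumours against 502 and 520 in small-intestinal ones, joined them (-1.68 ± 0.28, limma adjusted p = 0.0147). Chgb (-1.28 ± 0.36, limma adjusted p = 0.068), Gcg (-1.08 ± 0.45, 0.167), Tph1 (-1.04 ± 0.29, 0.067) and Pyy (1.20 ± 0.36, 0.0825) did not pass. Pyy was the 1 member with a positive difference here, and it passed with the epithelial centring (1.57, limma adjusted p = 2.18e-05). Of the 11 genes of that list 1 was itself called lower in colon tumours than in small-intestinal ones. Cck lost its call with the higher floor (-0.87, 0.0859).

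The third question was whether loss of ACKR2 went with a change in the hormones. Over both tissues 0 of 10 members were called by limma in non-tumour gut, where 0.685% of all genes tested were, and 0 of 10 in tumours, where 0.0357% were. None had an unadjusted p under 0.05, and the adjusted p-values ran from 0.356 to 1 and from 0.363 to 1.

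Single pairs of arrays were also compared. In non-tumour gut 1 member differed by 2-fold or more: Gip was 2.08-fold lower with ACKR2 loss in small intestine, from 1263 to 606. The median absolute difference of the members was 0.34 in non-tumour colon and 0.51 in non-tumour small intestine, against 0.33 and 0.34 over all genes. In colon tumours ACKR2 loss went with a Gcg signal that was 3.84-fold lower (difference -1.94), with Chgb 2.28-fold lower (-1.19) and with Pyy 2.10-fold higher (1.07). In small-intestinal tumours it went with Gip 2.83-fold higher (1.5), opposite to non-tumour small intestine, and with Cck 2.11-fold higher (1.08). So 3 of 10 members differed by 2-fold or more in colon tumours and 2 of 10 in small-intestinal tumours, where 6.87% and 6.56% of all genes tested did. The median absolute difference of the members was 0.59 in colon tumours and 0.37 in small-intestinal tumours, against 0.30 over all genes in each. Each of these gaps rests on 1 array against 1 array and has no replicate check. Gcg, Chgb and Pyy did not reach 2-fold in small-intestinal tumours. Cck went the other way in colon tumours, from 101 to 38.5, the latter under the floor, and Gip was under the floor in both.

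The wider enteroendocrine programme was described from lists of its other genes. Of 7 granins and granule proteins tested, Chga and Chgb included, all 7 were called lower in colon tumours. The share over all genes tested was 12.6%. The median difference was -1.78 against 0.00 over all genes tested. Scg2, which encodes secretogranin II, fell most (-2.73 ± 0.30, limma adjusted p = 0.00388), from 593 and 798 in colon to 155 and 69.0 in tumours. Scg5, which encodes a chaperone of a prohormone convertase, fell by 1.79 ± 0.21 on the log2 scale (limma adjusted p = 0.00471), which is a lower limit, since both tumour signals, 44.0 and 51.1, were under the floor. In small-intestinal tumours 0 of the 7 were called by limma, where 3.97% of all genes tested were, with a median of -0.46. Of 5 genes for prohormone processing, Cpe, which encodes carboxypeptidase E and trims the cleaved peptides, was the 1 called in colon tumours (-2.32 ± 0.31, limma adjusted p = 0.00606). The 1 other probe set of Cpe was at the floor in this comparison.

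**Figure D3:**
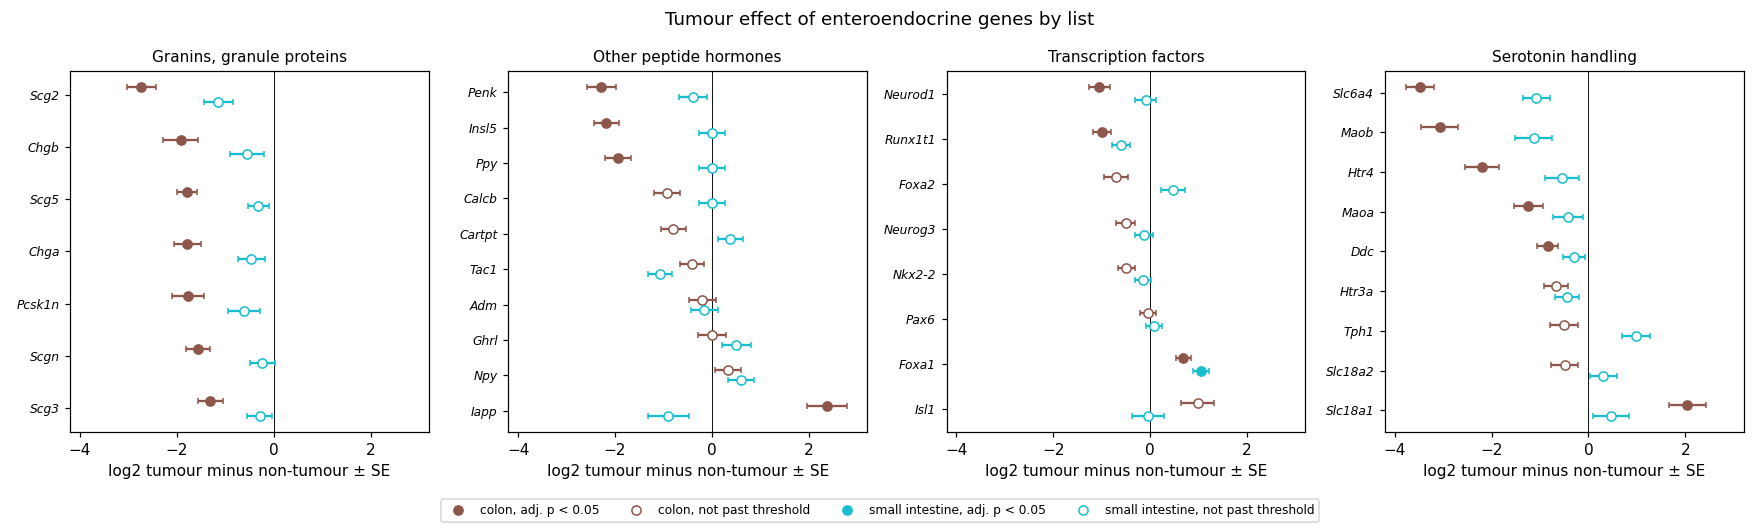
Log2 differences between tumours and non-tumour tissue (limma estimate ± SE) for the tested genes of 4 lists, in colon (brown) and small intestine (blue), with filled points for genes past the threshold. In colon all 7 granins and granule proteins lie below 0 and were called, and in small intestine none of them was.

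Other hormone genes gave 10 that could be tested. Insl5, which encodes insulin-like peptide 5 of colonic L cells, had a signal of 3716 and 2700 in non-tumour colon, 813 and 603 in colon tumours, and was under the floor on all 4 small-intestinal arrays. It fell in colon tumours (-2.18 ± 0.27, limma adjusted p = 0.00514). Ppy, the gene of pancreatic polypeptide, fell from 486 and 497 to 98.3 and 166 (-1.94 ± 0.26, limma adjusted p = 0.00647). Penk, the enkephalin precursor, fell by 2.28 ± 0.30 on the log2 scale (limma adjusted p = 0.0059). Iapp, which encodes amylin, rose in colon tumours, from under the floor in both non-tumour arrays to 139 and 790 (2.37 ± 0.42, limma adjusted p = 0.0134). None of the 10 was called in small-intestinal tumours by limma, where 3.97% of all genes tested were.

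Of 8 transcription factors tested, Neurod1, which drives enteroendocrine differentiation, fell in colon tumours (-1.05 ± 0.22, limma adjusted p = 0.0215), from 123 and 155 to 38.3, under the floor, and 69.0. Runx1t1 fell as well (-1.0 ± 0.19, limma adjusted p = 0.017), and its size is a lower limit with both tumour signals, 57.0 and 19.7, under the floor. Of 5 other probe sets of Runx1t1, 1 was at the floor. Foxa1 rose in colon tumours (0.68 ± 0.16, limma adjusted p = 0.0289) and in small-intestinal tumours (1.04 ± 0.16, 0.0259), but it is expressed widely in gut epithelium. Neurod1 in small-intestinal tumours was -0.09 ± 0.22 (limma adjusted p = 0.865). Other listed factors, among them Insm1 and Rfx6, were not tested because of the array annotation or the filter.

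Of 9 genes of serotonin handling, 5 were called lower and 1 higher in colon tumours, where 12.6% and 11.0% of all genes tested were. By limma 0 were called in small-intestinal tumours, where 3.97% of all genes tested were. Slc6a4, the transporter that takes serotonin up into epithelial cells, fell from 735 and 1126 in colon to 97.1 and 68.8 in tumours (-3.48 ± 0.28, limma adjusted p = 0.00197). Its interaction passed close to the threshold (-2.40 ± 0.40, limma adjusted p = 0.0454). The pairs were -2.92 and -4.03 in colon and -1.19 and -0.95 in small intestine. The -1.19 uses the WT small-intestinal array, and the interaction of Slc6a4 without that array is not given. The degrading enzyme Maob (-3.07 ± 0.39, 0.00543) and the receptor Htr4 (-2.20 ± 0.35, 0.0096) fell. Slc18a1, the vesicular transporter that loads serotonin into the granules of enterochromaffin cells, rose (2.04 ± 0.38, limma adjusted p = 0.0151), from 225 and 133 to 524 and 969. Of 2 other probe sets of Slc18a1, 1 was at the floor. In the same arrays Tph1 was not called.

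Markers of enteric neurons and of the gut wall were also lower in colon tumours. Chga, Chgb and Scg2 are also made by enteric neurons. Of 13 neuronal markers tested 10 were called lower in colon tumours, where 12.6% of all genes were, with a median difference of -1.79. In small-intestinal tumours 1 was called lower, where 3.97% of all genes were called in either direction, with a median of -0.71. Their summed signal was 4615 and 5997 in WT and ACKR2-/- colon, and 2037 and 662 in ApcMin/+ and ACKR2-/-ApcMin/+ colon tumours. In small intestine it was 3866 and 2458 without tumours and 2517 and 807 in tumours. Between the ACKR2 genotypes this sum and both granins moved the same way in colon tumours only. Smooth muscle markers, which mark the gut wall, were called lower for 9 of 9 in colon tumours and 6 of 9 in small-intestinal tumours.

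The summed smooth muscle signal was 122974 and 103684 in colon and 32696 and 8428 in colon tumours. In small intestine it was 52992 and 55809 without tumours and 22046 and 8716 in tumours. Epithelial markers gave a sum of 120560 to 137465 on the 4 colon arrays and of 137106 to 174085 on the 4 small-intestinal arrays. Of 8 colonocyte markers 5 were called lower in colon tumours, where 12.6% of all genes were, with a median difference of -2.44. Their sum was 102918 and 103007 in colon and 39592 and 18240 in colon tumours. In the ACKR2-/-ApcMin/+ small-intestinal tumours the neuronal sum was 807 while Chgb stood at 1570 and Chga at 520. In colon tumours the neuronal sum and the granins were low on the same arrays. The part of neurons, gut wall and colonocytes in the colon differences of the granins, and of other listed genes such as Penk, was not tested. Of 3 pancreatic islet genes tested, 1 was called higher in colon tumours, Iapp, and 1 lower, Ppy. The third, Slc2a2, which enterocytes also express, was under the floor on the 4 colon arrays. Ins2, a defining islet gene, was under the floor on all 8 arrays.

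**Figure D4:**
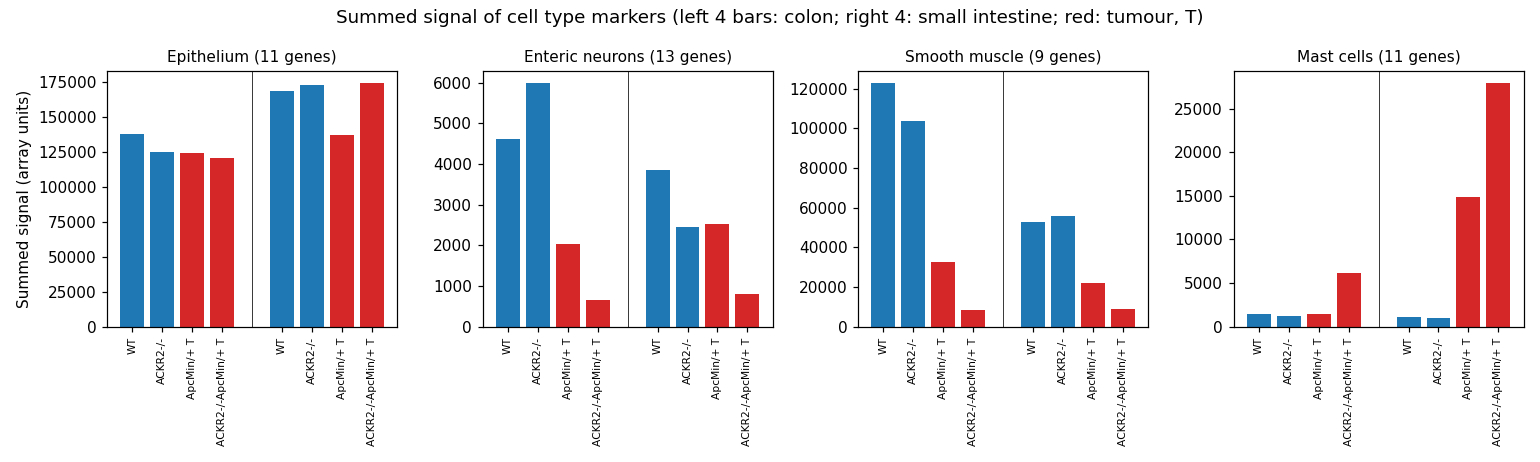
Summed signal of 4 marker lists on the 8 arrays (epithelium, enteric neurons, smooth muscle and mast cells), with 1 bar per array. Epithelial sums stay between 120560 and 174085, the neuronal and smooth muscle sums are lowest in ACKR2-/-ApcMin/+ colon tumours, and the mast cell sum is highest in ACKR2-/-ApcMin/+ small-intestinal tumours.

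The genes whose signal followed each member most closely were listed over the 8 arrays as a description, for members above the floor on at least 4 arrays. The 8 points share the split between colon and small intestine. Gip (Tvp23a, Ctsw and Treh), Nts (Gzmb, Mogat2 and H2-T3), Sst (Etnk1, Sult2b1 and Vwa1) and Sct (H2-Ab1, Kcnj13 and Tmem86a) had neighbours with Pearson correlations of 0.991 to 0.999. Cck had Mdh2, Klrd1 and Cd3d at 0.976 to 0.985. Chga had Clic5, Slc5a6 and Ush1c at 0.98 to 0.989, and Chgb had Mxd1, Eps8l3 and Sepsecs at 0.976 to 0.983. Gcg (Nol4l, Larp1b and Arhgap31, 0.966 to 0.967), Pyy (Zfp93, Lrpap1 and Gzf1, 0.936 to 0.945) and Tph1 (Pold4, Scn3b and Marchf1, 0.9 to 0.918) had looser neighbours. No member was among the neighbours of another.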

How the data were processed

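RNA of each genotype and tissue was pooled and hybridised to 1 Affymetrix array, which gave 8 groups of 1 array. The deposited values are linear signal intensities that the authors computed with MAS5 and handled in Partek, per the submitters' processing notes, which give no versions. The mean of each array, with 2% of values left out at each end, was 500. Of 45101 probe sets, 64 were controls, 34945 had 1 gene, 932 several and 9160 none in the platform annotation, and 0 symbols needed updating. The probe set with the highest mean stood for a gene. Lower values were raised to 64.1 (log2 6.00), the 40th percentile of an array's signals in the median over arrays, and genes above it on at least 2 of 8 arrays were tested.

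limma 3.58.1 in R 4.3.3 was fitted with 6 coefficients: a mean for each of the 4 kinds of tissue, and an ACKR2 effect for tumours and for non-tumour gut. The 2 residual degrees of freedom were those to which a trended empirical Bayes step added 4.16, with a median standard deviation of 0.22. Tests were two-sided, and p-values measure only the spread between these pools. Pairs of arrays were described without a test. The procedure was checked on simulated data.

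The members, the lists and the contrasts were chosen with earlier results of these data known. All 10 members were named. Of the called genes of the lists only some were named, at most 4 per list and comparison. A listed gene that is not named may therefore have been called. The 3 genes with the highest correlation were named for each member. Upstream sequences came from RefSeq (GRCm38.p6), matched by symbol for all 10 members. Alternatives were leaving out the floor, raising it to the 60th percentile, testing with no filter, centring arrays on their median, quantile normalization, averaging a gene's probe sets, dropping the ACKR2 terms or the trend, and leaving out each array. Centring on epithelial genes and leaving out both WT arrays were added after the data were seen. No unmapped column was used. Listed genes that were not tested lacked an assigned probe set or did not pass the filter.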

Additional observations from a re-analysis of the deposited data

Results flagged for a closer look

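Both pairs of Nts pointed up in colon tumours (1.13 and 1.33 on the log2 scale) and both pointed down in small-intestinal tumours (-0.57 and -0.78), opposite directions in every pair. The test of the difference between the tissues gave 1.90, which did not pass (limma adjusted p = 0.081). It passed without the floor (3.01, limma adjusted p = 0.0113) and with median centring (2.10, 0.0488), so this result depends on how low signals and array levels are treated. Non-tumour colon was under the floor for Nts on both arrays.

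Both pairs of Tph1 pointed down in colon tumours (-0.28 and -0.72) and both pointed up in small-intestinal tumours (0.97 and 1.0). The test of the difference gave -1.48, which did not pass (limma adjusted p = 0.134). The summed signal of mast cell markers, which was 14862 and 27968 in small-intestinal tumours against 1150 and 998 in the tissue without tumours, stands beside it, and its part was not tested.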

How the results depend on the processing

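No paired analysis was possible because each group has 1 array and so no replicate numbers to block on, although the model itself sets arrays of the same ACKR2 status against each other. Over the alternatives other than leaving out 1 array, 590 of 660 values for members kept their direction and their side of the threshold, 37 lost a call, 4 gained one and 29 changed sign. With 1 array left out, which leaves 1 residual degree of freedom, the counts over 560 values were 384, 120, 0 and 56, and limma called 0 members in any comparison, whichever of the 8 arrays was left out. All genes called were then 0 to 66 for colon against small intestine and 0 to 0 for every other comparison, with 1240 to 5235 at an unadjusted p under 0.05. Without both WT arrays limma called 0 genes in each of the 5 comparisons that remain, with 2743, 2802, 1487, 1568 and 2708 at an unadjusted p under 0.05. In colon tumours Chga was then -1.74, Chgb -1.89, Sst -1.04 and Nts 1.46.

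All genes called were 2999 for colon against small intestine, 3312 for colon tumours, 557 for small-intestinal tumours, 316 for the interaction, 1840 for colon tumours against small-intestinal tumours, 96 for ACKR2 loss without tumours and 5 in tumours. With no filter they were 253, 87, 18, 20, 24, 0 (3110 unadjusted) and 2, and Nts between the regions was the 1 member call kept. With the ACKR2 terms left out they were 1562, 1640, 271, 175 and 1061. For the 2 ACKR2 comparisons they were 427 and 41 with no floor, 2 and 1 with quantile normalization, 1320 and 18 with median centring, 1 and 0 (2236 unadjusted) with the mean of probe sets, 1 and 1 with no trend, and 552 and 113 with epithelial centring. The higher floor gave 332 for small-intestinal tumours and 1 for ACKR2 loss in tumours. The interaction gave 160 with the mean of probe sets, 202 with no trend and 521 with epithelial centring. Median centring moved the median of all genes from 0.11 to -0.13 between the regions, from 0.04 to -0.14 in small-intestinal tumours, from -0.07 to 0.13 in the interaction, from -0.02 to 0.20 for ACKR2 loss without tumours and from -0.03 to 0.16 in tumours. The causes were not tested.

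The signs that changed were all of values not called. They were, with no floor, Gip in the interaction (0.18) and Cck for ACKR2 loss in tumours (-0.16). With the higher floor they were Sct for ACKR2 loss without tumours (0.15), and Chga (0.026) and Sst (0.066) in tumours. With quantile normalization they were Sct in colon tumours (0.027), Gcg (0.016) and Pyy (-0.079) in the interaction, and Cck (0.14) and Sct (0.076) for ACKR2 loss without tumours. With median centring they were Chgb between the regions (-0.15), Sct in colon tumours (0.0093), Gcg (0.17) and Cck (0.025) in the interaction, and Chgb (0.038), Gcg (0.011), Cck (0.20) and Sct (0.16) for ACKR2 loss without tumours. With epithelial centring they were Chga between the regions (0.055), Sct in colon tumours (0.061), Pyy in the interaction (-0.037), and Chgb (0.070), Gcg (0.044), Cck (0.24) and Sct (0.19) for ACKR2 loss without tumours. Without both WT arrays they were Chgb between the regions (-0.23), Pyy (0.41) and Sct (0.48) in colon tumours and Gcg in the interaction (0.29). Leaving out 1 array turned the sign of 28 values, none called. The range was, for colon against small intestine Chgb (-0.23 to 0.42). It was, for colon tumours Pyy (-0.99 to 0.51), Cck (-0.54 to 1.19) and Sct (-0.73 to 0.70). It was, for small-intestinal tumours Chgb (-1.29 to 0.19), Gcg (-1.95 to 0.0024), Pyy (-1.0 to 0.49), Cck (-0.36 to 1.37), Sct (-1.30 to 0.13), Sst (-0.88 to 0.025) and Gip (-0.23 to 1.27). It was, for the interaction Gcg (-1.0 to 0.95), Pyy (-0.73 to 0.76), Cck (-1.04 to 0.69), Sct (-0.15 to 1.28) and Gip (-1.27 to 0.23). It was, for ACKR2 loss without tumours Chga (-0.33 to 0.36), Chgb (-0.52 to 0.14), Gcg (-0.54 to 0.11), Pyy (-0.60 to 0.89) and Sct (-0.79 to 0.65). It was, for ACKR2 loss in tumours Chga (-0.52 to 0.051), Chgb (-1.19 to 0.29), Gcg (-1.94 to 0.0099), Cck (-0.65 to 1.08), Sct (-0.21 to 0.63), Sst (-0.77 to 0.13) and Tph1 (-0.37 to 0.40).

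Signals near the floor of 64.1 limit what can be said of Cck, Gip and Nts in colon, where only a lower limit of the fold is known. Each group is 1 pool, so no value carries the spread between animals. Sex and the Actb ratio differ between the groups as given above.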

Other observations

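Genes that act on the hormones after release also differed by region. Dpp4, the peptidase that inactivates the incretins, was lower in colon than in small intestine in non-tumour tissue (-4.21 ± 0.21, limma adjusted p = 0.000196), with signals of 729 and 794 against 12060 and 16508. It was lower in colon tumours than in non-tumour colon (-0.81 ± 0.21, limma adjusted p = 0.0407) and did not pass in small-intestinal tumours (-0.97 ± 0.21, 0.0679). Mme, the gene of neprilysin, another peptidase, was lower in colon as well (-5.45 ± 0.33, limma adjusted p = 0.000346). Of 16 hormone receptors listed, 5 were tested, and receptors such as Glp1r, Gipr and Sstr1 were not. Npy1r, a receptor of the peptide YY family, fell in colon tumours (-2.03 ± 0.20, limma adjusted p = 0.00326), from 313 and 254 to 74.7 and 53.4, the last under the floor. For Npy1r 1 other probe set gave the opposite sign between colon and small intestine and was at the floor in the tumour comparison.

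Of 8 genes of the secretory machinery tested, 5 were called lower and 1 higher in colon tumours, where 12.6% and 11.0% of all genes were. In small-intestinal tumours 1 was called lower and 1 higher, where 3.97% were called in either direction. Resp18 fell in both (-1.83 ± 0.20, limma adjusted p = 0.00414, and -1.10 ± 0.20, 0.0446). Its tumour signals were all under the floor, so both sizes are lower limits. For Syp, among those lower in colon tumours, 1 other probe set gave the opposite sign. Snap25, a membrane fusion protein of neurons and endocrine cells, fell by 2.31 on the log2 scale (limma adjusted p = 0.00514), with 1 of the tumour signals under the floor. It is also in the list of neuronal markers. The 1 other probe set of Snap25 was at the floor in this comparison. Stx1a, its partner in fusion, rose in colon tumours (1.88 ± 0.25, limma adjusted p = 0.00605) and in small-intestinal tumours (1.47 ± 0.25, 0.0338). Among 5 nutrient and chemical sensors, Olfr78 fell (-1.51 ± 0.23, limma adjusted p = 0.00899) and Trpa1, an irritant-sensing channel of enterochromaffin cells, rose in colon tumours (1.37 ± 0.30, 0.0247). Of 3 other probe sets of Olfr78, 2 were at the floor.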
